A study of Saccharomyces cerevisiae with 15 samples.

Results

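Messenger RNA was compared between replicatively old and young mother cells of wild-type budding yeast (Saccharomyces cerevisiae). The comparison rests on 4 of the 15 libraries of the series: every wild-type RNA-seq library labelled old (2) and every one labelled young (2). The strain of all 4 was UCC8773, which carries the Mother Enrichment Program. In such strains a Cre recombinase, made only in daughter cells and switched on by estradiol, cuts out essential genes, so that daughters stop dividing while the original mothers go on. Old cells came from biotin-labelled mothers grown for 30 h in rich glucose medium (YPD) at 30 degrees with 1 µM estradiol, starting in 700 mL, with 300 mL of fresh medium and estradiol added at 20 h. Young cells were labelled in the same way and taken after 2 h. Both kinds were collected on magnetic beads that bind biotin, their poly(A) RNA was fragmented by alkaline hydrolysis, and fragments of 50 to 75 nt were sequenced. The study also held a strain of the same background without TIS11, also called CTH2, a gene for an RNA-binding protein that destabilises mRNAs when iron is low, and ribosome footprints of both strains. Age and time in culture cannot be told apart in this design, because old mothers also spent longer in their medium.

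Budding yeast mothers divide a limited number of times and change as they do so: the vacuole becomes less acidic, mitochondria lose function and circles of ribosomal DNA build up in the nucleolus. The transcription factors Aft1 and Aft2 switch on the iron regulon when too little iron is built into iron-sulfur clusters. Its products bind iron siderophores in the cell wall, carry them inward, reduce and oxidise iron for uptake, and save iron inside the cell. Another set, the DAN, TIR and PAU genes for small cell wall mannoproteins, is known for its expression at low oxygen, where heme and sterols cannot be made.

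The old libraries held 3974703 and 3116643 counts, and the young libraries 3512510 and 4971687 counts. A level of 3 counts corresponded to 0.695 and 0.821 CPM in the old libraries and to 0.942 and 0.663 CPM in the young ones (CPM, counts relative to the size of the library, scaled by TMM, the trimmed mean of M values). The old libraries resembled each other more than the young ones did. The biological coefficient of variation was 8.45% within the old pair and 27.3% within the young pair, and 22.7% in the edgeR fit of all 7 RNA-seq libraries that gave the tests. The labels do not say whether libraries of a group came from separate cultures, so p-values may measure technical spread only. Because these are bulk libraries, fewer cells of a kind and less RNA per cell cannot be told apart.

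Of 5991 genes tested in edgeR, 57 (0.951%) were called at an adjusted p under 0.05. Of these, 52 (0.868%) rose in old cells and 5 (0.0835%) fell. All 57 differed by more than the spread between libraries, with both old libraries on one side of both young ones, and the smallest change was 1.22 on the log2 scale. A wider description, with no test, took genes whose libraries did not overlap between ages and whose fold change was at least 2. It held 370 genes (6.18%) that were higher and 175 genes (2.92%) that were lower in old cells. The calls leaned on all 4 libraries. Without old library 1 or without old library 2, 1 gene was called each time, TIR4. Without young library 1 there were 15 calls and without young library 2 there were 10. At an unadjusted p under 0.05, 1194 genes passed (19.9%). DESeq2 called 260 genes, 154 higher and 106 lower in old cells, so the number of genes that fell depended most on the tool. Calls below are those of edgeR unless another tool is named. Scaling by library totals in place of TMM moved the median of all genes to 0.31 and gave 207 higher and 5 lower calls, and fold changes below are relative to the TMM scale.

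**Figure D1:**
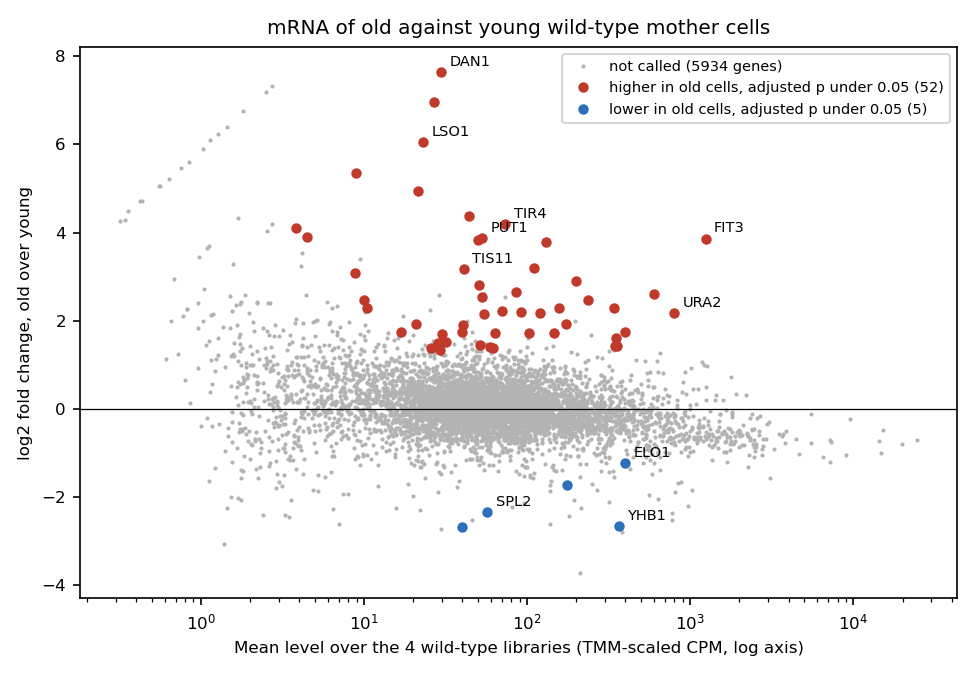
Log2 fold change of old over young cells (vertical axis) against the mean level over the 4 wild-type libraries (horizontal log axis, TMM-scaled CPM) for each of 5991 genes. Red points are the 52 genes that rose, blue points the 5 that fell and grey points all others; the called genes lie at levels from a few CPM (PAU13) to that of FIT3 (2508 CPM in old library 1), and most lie above 0.

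The iron regulon held the most called genes of any list. All 27 of its tested members were higher in both old libraries than in both young ones, whereas 30.1% of all genes were. Of the 27, 12 rose by the edgeR test (0.868% of all genes), 16 met the 2-fold description (6.18% of all genes), and none fell. The median log2 fold change of the list was 1.19, beside −0.0049 over all genes tested. Its summed level was 7222 and 6940.3 CPM in the old libraries, against 1466 and 1731 CPM in the young ones. On the TMM scale all genes tested summed to 919956 and 852487 CPM in the old libraries. In the young ones they summed to 1103028 and 1098548 CPM, so summed levels here and below are not shares of a library. The 12 genes that rose lay between 1.51 and 6.06, with edgeR adjusted p-values from 0.00973 to 0.0431. The other 15 lay between 0.05 (CTH1) and 1.69 (FRE5), with adjusted p-values from 0.0558 to 0.908. Without young library 1, and likewise without young library 2, 2 of the 27 were called, and without an old library none was, while the list median stayed between 1.18 and 1.53 over all alternatives tried.

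Promoter sequences are shown for the 6 genes with the highest fold changes whose window holds the motif chosen for their list. The window runs from 250 bases before the start codon to 50 bases into the gene. Capitals mark the motif on either strand: GCACCC (or GGGTGC), the core that Aft1 binds, in LSO1, FIT3, FIT1 and TIS11, and TCGTATA (or TATACGA), a core of sterol regulatory elements, in DAN1 and PAU2. The FIT1 window also holds TCGTATA, left in lower case. Sequences and coordinates are those of the R64 RefSeq genome, printed along the coding strand.
LSO1 chrX:448709-449008, minus strand: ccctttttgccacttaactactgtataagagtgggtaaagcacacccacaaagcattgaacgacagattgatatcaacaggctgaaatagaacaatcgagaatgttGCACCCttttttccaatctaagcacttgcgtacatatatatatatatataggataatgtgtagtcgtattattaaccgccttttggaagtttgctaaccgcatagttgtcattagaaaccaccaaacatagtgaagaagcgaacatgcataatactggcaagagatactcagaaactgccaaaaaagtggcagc
FIT3 chrXV:1061006-1061305, minus strand: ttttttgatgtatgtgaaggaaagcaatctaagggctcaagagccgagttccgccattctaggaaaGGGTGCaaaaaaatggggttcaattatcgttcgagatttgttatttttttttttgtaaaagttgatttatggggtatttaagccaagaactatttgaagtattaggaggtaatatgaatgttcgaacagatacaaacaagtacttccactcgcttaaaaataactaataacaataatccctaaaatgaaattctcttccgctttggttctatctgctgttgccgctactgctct
FIT1 chrIV:1504851-1505150, minus strand: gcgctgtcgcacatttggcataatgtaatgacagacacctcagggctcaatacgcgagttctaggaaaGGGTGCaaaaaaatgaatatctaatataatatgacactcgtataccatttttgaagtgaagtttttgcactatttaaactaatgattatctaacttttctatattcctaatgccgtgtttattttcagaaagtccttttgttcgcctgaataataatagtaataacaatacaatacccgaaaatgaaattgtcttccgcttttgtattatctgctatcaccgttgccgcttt
TIS11 chrXII:416609-416908, minus strand: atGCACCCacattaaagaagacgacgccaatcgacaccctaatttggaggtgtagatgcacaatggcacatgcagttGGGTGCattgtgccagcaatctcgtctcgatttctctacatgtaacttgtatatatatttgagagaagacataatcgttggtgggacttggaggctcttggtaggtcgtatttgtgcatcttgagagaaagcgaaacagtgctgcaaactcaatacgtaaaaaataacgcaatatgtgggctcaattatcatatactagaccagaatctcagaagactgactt
DAN1 chrX:709658-709957, minus strand: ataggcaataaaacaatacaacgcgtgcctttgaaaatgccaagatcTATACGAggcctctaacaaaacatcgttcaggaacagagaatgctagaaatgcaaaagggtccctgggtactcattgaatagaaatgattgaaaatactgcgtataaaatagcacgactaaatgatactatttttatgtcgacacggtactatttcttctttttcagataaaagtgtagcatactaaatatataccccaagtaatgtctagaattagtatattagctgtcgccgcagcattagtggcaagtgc
PAU2 chrV:63478-63777, plus strand: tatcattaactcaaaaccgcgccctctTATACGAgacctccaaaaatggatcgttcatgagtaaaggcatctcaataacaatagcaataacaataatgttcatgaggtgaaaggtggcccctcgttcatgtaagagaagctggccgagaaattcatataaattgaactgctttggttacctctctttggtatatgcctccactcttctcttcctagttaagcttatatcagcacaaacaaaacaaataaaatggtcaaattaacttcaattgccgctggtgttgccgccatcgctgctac

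The Aft1 core occurred in 17 of the 27 iron regulon windows (63.0%), in 10 of the 51 windows of genes that rose, and in 254 of all 5988 windows (4.24%). TCGTATA occurred in 248 windows (4.14%), among them 6 of the 51 of genes that rose, 3 of 18 of the low-oxygen list and 1 of 24 of the PAU family. The share in the PAU family (4.17%) was close to that of all windows, so PAU2 is not typical of its list. These are matches of letters in a window, not measured binding sites. The iron list was made from genes known to be under Aft1.

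Among the iron regulon, the short-protein gene LSO1 (YJR005C-A, chromosome X, 448477 to 448758, minus strand) had the highest fold change. It had 50.2 and 40.5 CPM in old cells, against 0.628 and 0.663 CPM in young cells. The young libraries held 2 and 3 counts, so LSO1 was near the limit of detection there and clearly present in both old libraries. Its log2 fold change was 6.06 (edgeR adjusted p 0.0126, SE 0.63).

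The 3 FIT genes encode mannoproteins that hold siderophore iron in the cell wall. FIT3 (YOR383C) had 2508 and 2143 CPM in old cells, against 144 and 176 CPM in young cells, a log2 fold change of 3.86 (edgeR adjusted p 0.0120, SE 0.40). FIT1 (YDR534C) had 117 and 70.9 CPM in old cells, against 6.91 and 6.19 CPM in young cells, a log2 fold change of 3.84 (edgeR adjusted p 0.0431, SE 0.56). FIT2 (YOR382W) had 919 and 1135 CPM in old cells, against 147 and 192 CPM in young cells, a log2 fold change of 2.60 (edgeR adjusted p 0.0231, SE 0.33). For all 3 the lower old library stood well above the higher young one, and the pair of old FIT1 values differed more than the pair of young ones.

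Siderophore transporters followed. ARN1 (YHL040C) had 190.1 and 209.9 CPM in old cells, against 16.6 and 26.7 CPM in young cells, a log2 fold change of 3.19 (edgeR adjusted p 0.00973, SE 0.27). SIT1 (YEL065W), the ferrioxamine transporter, had 344 and 364 CPM in old cells, against 28.9 and 65.6 CPM in young cells, and its log2 fold change was 2.89 (edgeR adjusted p 0.0341, SE 0.40). ARN2 (YHL047C) had 412 and 383 CPM in old cells, against 59.7 and 84.0 CPM in young cells, with a log2 fold change of 2.46 (edgeR adjusted p 0.0193, SE 0.29). In each of these genes young library 2 was higher than young library 1, and neither reached the level of an old library.

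The reductive uptake pair at the plasma membrane also rose. FTR1 (YER145C), the iron permease, had 573 and 561 CPM in old cells, against 91.4 and 142 CPM in young cells, a log2 fold change of 2.28 (edgeR adjusted p 0.0247, SE 0.30). FET3 (YMR058W), its multicopper oxidase partner, had 647 and 582 CPM in old cells, against 208 and 157 CPM in young cells, a log2 fold change of 1.75 (edgeR adjusted p 0.0216, SE 0.22). CCC2 (YDR270W), the pump that loads copper into Fet3, had 44.5 and 44.3 CPM in old cells, against 15.4 and 15.7 CPM in young cells, a log2 fold change of 1.51 (edgeR adjusted p 0.0341, SE 0.22). The ages did not overlap for any of the 3 genes, and young library 2 was above young library 1 for FTR1 and below it for FET3.

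Other members act on iron already inside the cell. HMX1 (YLR205C), a heme oxygenase that frees iron from heme, had 70.2 and 52.0 CPM in old cells, against 18.8 and 17.5 CPM in young cells, a log2 fold change of 1.75 (edgeR adjusted p 0.0247, SE 0.23). TIS11 (YLR136C, chromosome XII, 415801 to 416658, minus strand) had 68.1 and 78.8 CPM in old cells, against 10.1 and 6.41 CPM in young cells, a log2 fold change of 3.17 (edgeR adjusted p 0.0110, SE 0.29). Its paralog CTH1 had 58.1 and 58.8 CPM in old cells, against 55.6 and 57.0 CPM in young cells, with a log2 fold change of 0.05 and an edgeR adjusted p of 0.908, and all 4 libraries lay within a few CPM of each other. The difference in response between the paralogs was not tested.

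AFT1 itself had 50.5 and 55.0 CPM in old cells, against 16.3 and 21.4 CPM in young cells. Both old libraries were above both young ones, but its log2 fold change of 1.47 missed the threshold in edgeR (adjusted p 0.0975). Among the 8 genes of iron sensing and storage none was called, and they ran from −0.78 (GRX4, a glutaredoxin that restrains Aft1) to AFT1. Among 16 genes of iron-sulfur cluster assembly, 1 rose (0.868% of all genes). This was ISU2 (YOR226C), a scaffold protein, with 46.8 and 44.9 CPM in old cells, against 15.1 and 13.0 CPM in young cells. Its log2 fold change was 1.71 (edgeR adjusted p 0.0248, SE 0.22). The list median was 0.03. The 15 iron-dependent enzymes outside the respiratory chain had a median of 0.16, none was called, and they ran from −0.999 (OLE1, the fatty acid desaturase) to 1.11 (ERG25, of sterol synthesis). Of 8 heme synthesis genes, none was called; HEM1, the first enzyme, was highest at 0.78 and HEM15, ferrochelatase, was lowest at −0.83.

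**Figure D2:**
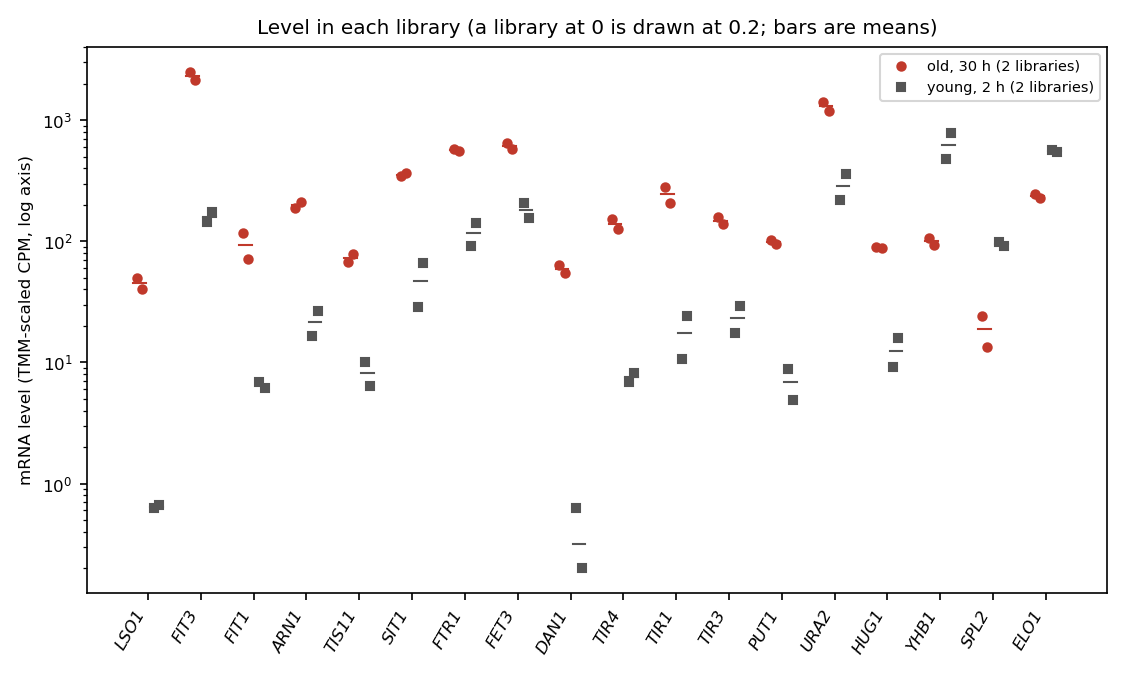
Level of 18 called genes in each wild-type library (vertical log axis, TMM-scaled CPM), old libraries as red circles on the left of each gene and young libraries as grey squares on the right, with short bars for the means. For every gene shown the 2 old libraries lie on one side of the 2 young ones, as for FIT3 (old 2508 and 2143 CPM, young 144 and 176 CPM), and only YHB1, SPL2 and ELO1 are lower in old cells.

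Genes of low-oxygen growth gave the highest fold changes. Of 18 genes in the list of hypoxic genes and anaerobic mannoproteins, 7 rose (0.868% of all genes did), none fell and 9 were at least 2-fold higher without overlap (6.18% of all genes), with a median log2 fold change of 0.97. DAN1 (YJR150C, chromosome X, 708811 to 709707, minus strand), a mannoprotein gene almost silent in air, had 63.9 and 54.5 CPM in old cells, against 0.628 and 0 CPM in young cells. With 475 counts in the old libraries and 2 in the young ones, the ratio was 229.6 (95% counting interval 63.2 to 1901), and edgeR gave an adjusted p of 0.00596. DAN1 was thus at the limit of detection in young cells and plainly present in both old libraries. Without young library 1, 3 members of the list were called, and without young library 2, 4 were.

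The TIR genes encode cell wall proteins of the same family. TIR4 (YOR009W) had 152 and 127 CPM in old cells, against 6.91 and 8.18 CPM in young cells, a log2 fold change of 4.19 (edgeR adjusted p 0.00247, SE 0.22). TIR1 (YER011W) had 283 and 206 CPM in old cells, against 10.7 and 24.3 CPM in young cells, a log2 fold change of 3.78 (edgeR adjusted p 0.0195, SE 0.44). TIR3 (YIL011W) had 158 and 138 CPM in old cells, against 17.6 and 29.0 CPM in young cells, a log2 fold change of 2.66 (edgeR adjusted p 0.0193, SE 0.31). TIR4 was the gene with the smallest adjusted p, and its libraries agreed closely within each age, while young library 2 was above young library 1 for TIR1.

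AUS1 (YOR011W), an ABC transporter that takes up sterol, had 153 and 147 CPM in old cells, against 27.6 and 37.8 CPM in young cells, a log2 fold change of 2.19 (edgeR adjusted p 0.0126, SE 0.23). DAN4 (YJR151C), another mannoprotein, had 39.6 and 43.8 CPM in old cells, against 15.7 and 13.9 CPM in young cells, a log2 fold change of 1.49 (edgeR adjusted p 0.0476, SE 0.23). The seventh called member was PAU24, also named DAN3, which belongs to the PAU family too. At the other end of the list stood CYC7, the cytochrome c isoform of low oxygen, with 24.1 and 32.6 CPM in old cells, against 215 and 51.7 CPM in young cells. Both old libraries were lower, but young library 1 was far above young library 2, and the log2 fold change of −2.23 was not called (edgeR adjusted p 0.200). ANB1, a translation factor gene repressed in air, was higher in both old libraries at a log2 fold change of 1.62 without passing the test (adjusted p 0.0818). UPC2, a transcription factor for sterol and anaerobic genes, had 58.6 and 61.3 CPM in old cells, against 28.0 and 32.3 CPM in young cells, a log2 fold change of 0.99 and an adjusted p of 0.0773.

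The PAU genes (seripauperins) form a family of near-identical copies, most of them close to chromosome ends. Of 24 members, 15 passed the filter on low counts, all 15 were higher in both old libraries (30.1% of all genes) and 5 rose by the edgeR test (0.868% of all genes). A member could pass the filter through old cells alone, which fixes its direction in advance. These counts and the medians that follow are therefore a description and not evidence of a rise of the family. They do not describe the 9 members that did not pass. The median log2 fold change of the 15 was 4.94, or 3.28 with the 5 members that had no young count set at their lower bound. Without young library 1, 3 members were called, and without young library 2, 1 was. The summed level was 198 and 184 CPM in the old libraries, against 24.5 and 17.7 CPM in the young ones. PAU5 (YFL020C) had no near-identical copy and had 41.7 and 41.0 CPM in old cells, against 1.88 and 0.884 CPM in young cells, a log2 fold change of 4.94 (edgeR adjusted p 0.0101, SE 0.43). PAU24 had 57.9 and 48.7 CPM in old cells, against 0.942 and 0 CPM in young cells, a ratio of counts of 137.9 (interval 46.9 to 671) with an adjusted p of 0.0110.

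PAU3 had 138 counts in old cells and 3 in young ones, a ratio of 44.5 (interval 14.9 to 218). PAU13 had 57 counts in old cells and 3 in young ones, a ratio of 18.4 (interval 5.98 to 91.7). PAU2 had 8.80 and 7.94 CPM in old cells, against 0.942 and 0.221 CPM in young cells, a log2 fold change of 3.90 (edgeR adjusted p 0.0494, SE 0.61). All of these were near the detection limit in young cells, and reads of PAU24, PAU3, PAU13 and PAU2 cannot be assigned to 1 copy with certainty. Of the members without a young count, PAU12 was at least 14.2-fold higher in old cells, against a floor of 3 counts over both young libraries. It was not called (edgeR adjusted p 0.0976), and in all 10 of the 15 tested members were not. PAU23 had the lowest log2 fold change of these, 0.40 (edgeR adjusted p 0.569), with 13.4 and 11.2 CPM in old cells, against 9.74 and 9.06 CPM in young cells.

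**Figure D3:**
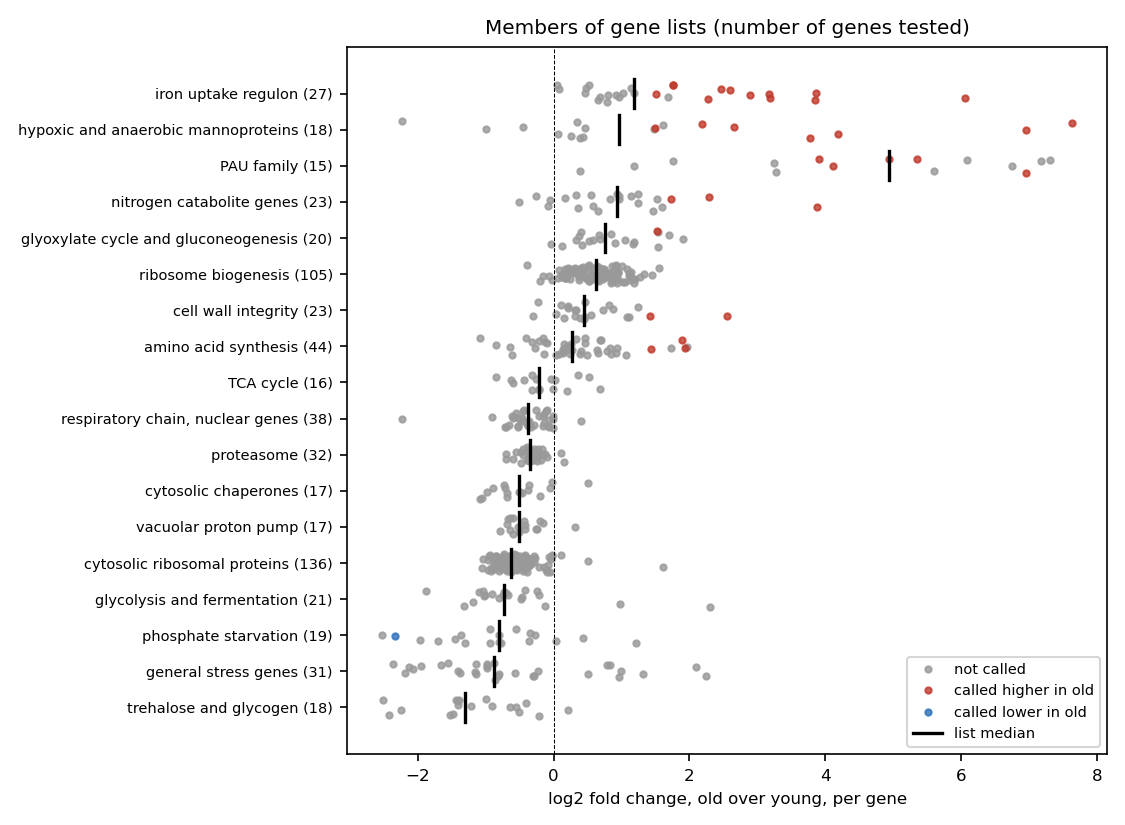
Log2 fold change of old over young cells for each tested gene in 18 lists (horizontal axis; number of genes tested in brackets), with red for genes that rose, blue for genes that fell, grey for genes not called and a black line for the list median. The iron, low-oxygen, PAU and nitrogen lists lie mainly to the right of 0, and the lists of ribosomal proteins, phosphate, stress and storage carbohydrate genes mainly to the left.

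A list of nitrogen genes, which includes genes for the use of poor nitrogen sources, also held calls. Of 23 tested, 3 rose (0.868% of all genes) and 9 were at least 2-fold higher without overlap (6.18% of all genes), and the list median was 0.94. PUT1 (YLR142W), proline oxidase of mitochondria, had 102 and 95.5 CPM in old cells, against 8.80 and 4.86 CPM in young cells, a log2 fold change of 3.88 (edgeR adjusted p 0.00596, SE 0.29). PUT4 (YOR348C), the proline permease, had 19.7 and 14.8 CPM in old cells, against 3.46 and 3.54 CPM in young cells, a log2 fold change of 2.29 (edgeR adjusted p 0.0478, SE 0.36). GDH3 (YAL062W), a glutamate dehydrogenase, had 102 and 93.6 CPM in old cells, against 33.6 and 25.6 CPM in young cells, a log2 fold change of 1.72 (edgeR adjusted p 0.0193, SE 0.20). The old libraries of each gene lay clear of the young ones, and PUT1 alone was called without either young library. DCG1 was the lowest member at −0.50.

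Among 44 genes of amino acid synthesis, mostly targets of Gcn4, 3 rose (0.868% of all genes) and none fell, with a list median of 0.27. CPA1, which makes carbamoyl phosphate for arginine, had 252 and 293 CPM in old cells, against 73.2 and 70.1 CPM in young cells, a log2 fold change of 1.93 (edgeR adjusted p 0.0120, SE 0.20). SNZ1, of vitamin B6 synthesis, had a log2 fold change of 1.89 (edgeR adjusted p 0.0132, SE 0.21), and SER3, the first step to serine, of 1.44 (edgeR adjusted p 0.0431, SE 0.22). SER3 overlaps a non-coding RNA gene on the annotation, and no use of strand in counting is given in the sources used here. SNO1, the neighbour and partner of SNZ1, was highest at 1.97 and HIS4 lowest at −1.09, and neither was called (edgeR adjusted p 0.111 and 0.166).

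URA2, FUI1 and MCH5, which belong to no list used here, were also among the genes that rose. URA2 (YJL130C), the first enzyme of pyrimidine synthesis, had 1406 and 1201 CPM in old cells, against 217 and 359 CPM in young cells, a log2 fold change of 2.18 (edgeR adjusted p 0.0426, SE 0.32). FUI1 (YBL042C), the uridine permease, had 191 and 204 CPM in old cells, against 49.3 and 38.0 CPM in young cells, a log2 fold change of 2.18 (edgeR adjusted p 0.0110, SE 0.21). MCH5 (YOR306C), the riboflavin transporter, had 276 and 244 CPM in old cells, against 45.5 and 60.6 CPM in young cells, a log2 fold change of 2.29 (edgeR adjusted p 0.0182, SE 0.26). All 3 were higher in each old library than in either young one.

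In the list of NAD and thiamine genes 2 of 21 rose (0.868% of all genes). THI7, the thiamine transporter, had 111 and 119 CPM in old cells, against 21.0 and 27.8 CPM in young cells. Its log2 fold change was 2.23 (edgeR adjusted p 0.0114, SE 0.22). BNA2, the first enzyme of NAD synthesis from tryptophan, had 32.2 and 33.7 CPM in old cells, against 9.42 and 7.96 CPM in young cells. Its log2 fold change was 1.93 (edgeR adjusted p 0.0193, SE 0.23). BNA2 overlaps another annotated gene, so its reads are uncertain to that extent. The lowest member was PHO3 at −0.93. GCV2, of glycine breakdown, rose at 1.71 (edgeR adjusted p 0.0120). PDH1, which acts in propionate breakdown and is a retrograde-response gene, had 16.2 and 17.8 CPM in old cells, against 3.77 and 2.43 CPM in young cells. Its log2 fold change was 2.47 (edgeR adjusted p 0.0326, SE 0.35). It was the single call among 11 retrograde-response genes (median 0.20), where 0.951% of all genes were called.

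Of 23 cell wall integrity genes, 2 rose (0.868% of all genes), and the median was 0.45. PIR3 (YKL163W), a structural wall protein, had 87.3 and 92.8 CPM in old cells, against 19.2 and 11.9 CPM in young cells, a log2 fold change of 2.55 (edgeR adjusted p 0.0296, SE 0.35). CRH1 (YGR189C), which links chitin to glucan, had 496 and 517 CPM in old cells, against 159 and 219 CPM in young cells, a log2 fold change of 1.42 (edgeR adjusted p 0.0497, SE 0.22). The lowest entry was MLP1 at −0.31. It was matched to the list by its symbol alone, and its part in cell wall integrity was not checked. NCA3 (YJL116C), of the SUN family, rose at 2.16 (edgeR adjusted p 0.0120).

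Among 17 tested genes of DNA damage and nucleotide reduction, 1 rose (0.868% of all genes). This was HUG1, a small inhibitor of ribonucleotide reductase switched on by DNA damage. HUG1 (YML058W-A) had 89.8 and 87.8 CPM in old cells, against 9.11 and 15.9 CPM in young cells, a log2 fold change of 2.80 (edgeR adjusted p 0.0110, SE 0.27). RNR3, the damage-induced large subunit of the reductase, named after its values were seen, was higher at 1.36 without being called (adjusted p 0.0927), and DUN1, the damage checkpoint kinase, was lowest at −0.46. The list median was 0.30. RDN5-1, a 5S ribosomal RNA gene of the ribosomal DNA array on chromosome XII (459676 to 459796), had 82.9 and 85.6 CPM in old cells, against 5.65 and 2.65 CPM in young cells, a log2 fold change of 4.39 (edgeR adjusted p 0.00596, SE 0.32). Both old libraries stood far above the young ones. Its 5 annotated near-identical copies cannot be told apart from it, and 5S RNA has no poly(A) tail; how it entered these libraries was not tested.

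The remaining genes that rose stood outside these groups. ALD6 and ADH2, of ethanol and acetaldehyde use, had log2 fold changes of 1.62 and 1.53 (edgeR adjusted p 0.0326 and 0.0478). VID24, a subunit of the ubiquitin ligase that removes gluconeogenic enzymes, had 1.72, SDS23 1.38, the F-box gene DAS1 1.35, the acetyltransferase gene HPA3 1.40 and the Ty1 activator gene TEA1 1.45, with adjusted p-values from 0.0195 (HPA3) to 0.0476 (DAS1). HPA3 overlaps another annotated gene. YPR078C and YPL068C, of unknown function, had 3.07 and 1.74. SAG1, the agglutinin of alpha cells, is given with the mating-type genes. With these, all 52 genes that rose are named, and those outside the naming rule were added to complete the list.

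The 5 genes that fell included 3 of known function. YHB1 (YGR234W), the flavohemoglobin that detoxifies nitric oxide, had 106 and 93.6 CPM in old cells, against 474 and 779 CPM in young cells, a log2 fold change of −2.65 (edgeR adjusted p 0.0497, SE 0.41). SPL2 (YHR136C), which limits low-affinity phosphate uptake when phosphate is scarce, had 24.1 and 13.4 CPM in old cells, against 99.6 and 90.6 CPM in young cells, a log2 fold change of −2.33 (edgeR adjusted p 0.0202, SE 0.29). ELO1 (YJL196C), a fatty acid elongase, had 248 and 229 CPM in old cells, against 568 and 544 CPM in young cells, a log2 fold change of −1.22 (edgeR adjusted p 0.0469, SE 0.19). Each old library was below each young one in all 3, with young library 2 of YHB1 above young library 1.

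The small gene YER053C-A, of unknown function, had 9.96 and 11.5 CPM in old cells, against 74.4 and 62.8 CPM in young cells, a log2 fold change of −2.67 (edgeR adjusted p 0.0110, SE 0.25). YNL303W, an identifier with no match in the annotation used, had 82.7 and 81.3 CPM in old cells, against 229 and 313 CPM in young cells, a log2 fold change of −1.72 (edgeR adjusted p 0.0202, SE 0.21). In both, the old libraries lay together and well below the young ones. YHB1 was the 1 call among 28 genes of oxidative defence, where 0.951% of all genes were called. The list median was −0.37 (−0.46 against young library 1 and 0.04 against young library 2). Of 11 fatty acid synthesis genes ELO1 alone was called (0.951% of all genes), 10 were below 0 and the median was −0.53. DESeq2 called 4 of the 11 lower.

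The phosphate starvation list of 19 genes had a median of −0.81, and SPL2 alone was called (0.951% of all genes). DESeq2 called 7 of the 19 lower and 1 higher. In the list 7 members were at least 2-fold lower without overlap, where 2.92% of all genes were. PHO12, an acid phosphatase with a near-identical copy, was lowest, with 18.1 and 9.03 CPM in old cells, against 64.4 and 93.0 CPM in young cells, and was not called (log2 fold change −2.53, edgeR adjusted p 0.111). PHO4, the transcription factor of the list, was higher in both old libraries, at 1.22 and an adjusted p of 0.0742. The medians were −0.62 against young library 1 and −1.05 against young library 2.

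Central carbon genes split by direction. Among 20 genes of the glyoxylate cycle and gluconeogenesis, ADH2, the ethanol-consuming dehydrogenase, was the single call (0.951% of all genes). Of the 20, 19 were above 0 and 8 were at least 2-fold higher without overlap (6.18% of all genes), and the median was 0.76. FBP1, fructose bisphosphatase, was highest, with 17.1 and 14.8 CPM in old cells, against 5.03 and 3.54 CPM in young cells, at 1.91 (edgeR adjusted p 0.151). Among 21 genes of glycolysis and fermentation none was called, 17 were lower in both old libraries than in both young ones, where 27.8% of all genes were, and the median was −0.73. DESeq2 called 6 of the 21 lower and 1 higher. The summed level of the 21 was 111799.5 and 88787 CPM in the old libraries, against 192068 and 157594 CPM in the young ones. The sum of all genes tested was also lower in the old libraries on this scale (919956 and 852487 against 1103028 and 1098548 CPM). HXK1, hexokinase, was lowest, with 315 and 371 CPM in old cells, against 1943 and 587 CPM in young cells, and its log2 fold change of −1.88 was not called (adjusted p 0.223); young library 1 was far above young library 2. PDC6, a minor pyruvate decarboxylase, was highest at 2.30 (adjusted p 0.0855).

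The 17 genes of hexose transport and glucose sensing had a median of 0.47 and none was called. HXT6, a high-affinity glucose transporter with a near-identical copy, rested on 1 library: it had 8.34 and 7.11 CPM in old cells, against 101 and 3.09 CPM in young cells. Young library 1 stood apart, and the log2 fold change of −2.71 became 1.31 without it.

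No gene of respiration was called by edgeR. DESeq2 called 2 nuclear genes of the respiratory chain lower and 1 respiratory regulator higher. Of 38 nuclear genes of the respiratory chain 37 were below 0, 21 were lower without overlap (27.8% of all genes), and the median was −0.38. This median came to −0.57 against young library 1 and −0.14 against young library 2, and to −0.065 with library totals in place of TMM. The 16 genes of the citrate cycle had a median of −0.21, with CIT1 lowest at −0.85 and CIT3 highest at 0.68; with library totals in place of TMM the median was 0.10. CYC1, the main cytochrome c gene, had 52.8 and 36.7 CPM in old cells, against 58.4 and 78.0 CPM in young cells, a log2 fold change of −0.61 (edgeR adjusted p 0.249). HAP4, the activator of respiratory genes, had 38.4 and 49.0 CPM in old cells, against 103 and 78.7 CPM in young cells. Its log2 fold change of −1.05 (edgeR adjusted p 0.187) was the lowest of 8 respiratory regulators. Of these 8, 5 were above 0 and 3 were higher without overlap (30.1% of all genes), with a median of 0.07. Of 8 genes of mitochondrial DNA only COX1 and OLI1 passed the filter on low counts, at −1.15 and −0.28. Mitochondrial transcripts of yeast carry no poly(A) tail.

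Ribosomal protein genes and ribosome assembly genes lay on opposite sides of 0. Of 136 cytosolic ribosomal protein genes 133 were below 0 and 116 were lower without overlap (27.8% of all genes), with a median of −0.63 and no call. DESeq2 called 11 of the 136 lower. The summed level of the 136 was 168919 and 140876 CPM in the old libraries, against 218979 and 265182 CPM in the young ones. All genes tested summed to 919956 and 852487 CPM in the old libraries, against 1103028 and 1098548 CPM in the young ones. The scale thus made up part of this difference. RPS20 was the lowest, with 1599 and 1404 CPM in old cells, against 2559 and 3651 CPM in young cells, at −1.05 (edgeR adjusted p 0.132). RPL39 was listed highest at 1.61, but with 0 and 5 counts in the young libraries it was barely measured. A near-identical copy exists for 94 of the 136, so their reads may be shared between copies.

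Of 105 ribosome biogenesis genes 100 were above 0, 68 were higher without overlap (30.1% of all genes), 16 were also at least 2-fold higher (6.18% of all genes), and the median was 0.63 with no call. DBP7, a helicase of large-subunit assembly, was highest, with 69.2 and 73.6 CPM in old cells, against 17.9 and 30.5 CPM in young cells, at 1.55 (edgeR adjusted p 0.223), and RRP7 lowest at −0.39. The median was 1.12 against young library 1 and 0.26 against young library 2, so its size depended on the young library. Relative to young library 1, 58 of the 105 were at least 2-fold higher in both old libraries, and relative to young library 2, 1 was. The 72 mitochondrial ribosomal protein genes had a median of −0.07 and the 39 translation factor genes of −0.05, close to that of all genes.

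In the lists of protein quality control no gene was called by edgeR. DESeq2 called 1 proteasome gene, 2 genes of the vacuolar proton pump and 4 chaperone genes lower. Of 32 proteasome genes 26 were lower without overlap, where 27.8% of all genes were, with a median of −0.35 and RPT6 lowest at −0.70. Of 17 subunits and assembly factors of the vacuolar proton pump 14 were lower without overlap, with a median of −0.52, VPH2 lowest at −0.78 and STV1, the Golgi isoform, highest at 0.31. Of 17 cytosolic chaperone genes 12 were lower without overlap, with a median of −0.51, SSA1 lowest at −1.08 and HSF1, the heat shock factor, highest at 0.51. With library totals in place of TMM the medians were −0.028 for the proteasome, −0.20 for the proton pump and −0.20 for the chaperones. Of 15 unfolded protein response genes 5 were higher (30.1% of all genes) and 6 lower (27.8% of all genes) without overlap, with a median of −0.11. Of 19 tested genes of autophagy and vacuolar proteases 8 were above 0, and their median of −0.09 changed sign with the young library: it came to −0.40 against young library 1 and 0.25 against young library 2.

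Stress and storage genes differed most between the young libraries. The 18 genes of trehalose and glycogen metabolism had a median of −1.30, 10 were at least 2-fold lower without overlap (2.92% of all genes) and none was called. Their summed level was 3511 and 3810.4 CPM in the old libraries, against 12906 and 5604 CPM in the young ones. PGM2, phosphoglucomutase, was lowest, with 216 and 244 CPM in old cells, against 2060.0 and 565 CPM in young cells, at −2.51 (edgeR adjusted p 0.169). Both old libraries were below both young ones, but young library 1 was several times above young library 2. Against young library 1, 13 of the 18 genes were at least 2-fold lower in both old libraries, and against young library 2, 2 were. The medians were −1.69 against young library 1 and −0.51 against young library 2. DESeq2 called 4 of the 18 lower, and edgeR none.

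The 31 tested general stress genes, targets of Msn2 and Msn4, showed the same imbalance. Their summed level was 10336 and 10475 CPM in the old libraries, against 32148 and 12910.1 CPM in the young ones, and their median of −0.88 came to −1.34 against young library 1 and −0.09 against young library 2. HSP30, a membrane heat shock protein gene, was lowest, with 244 and 255 CPM in old cells, against 1799.6 and 776 CPM in young cells, at −2.37 (edgeR adjusted p 0.115). GRE1, a hydrophilin gene, was highest, with 45.4 and 37.8 CPM in old cells, against 12.3 and 5.75 CPM in young cells, at 2.24 (adjusted p 0.0855), and neither was called. By edgeR no gene of the list was called, and DESeq2 called 6 lower and 1 higher. Against young library 1, 20 of the 31 were at least 2-fold lower in both old libraries and 1 was higher; against young library 2, 3 were lower and 9 higher. The iron, low-oxygen and PAU lists did not depend on the young library in this way, with medians of 1.49 against young library 1 and 1.34 against young library 2 for the iron regulon.

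**Figure D4:**
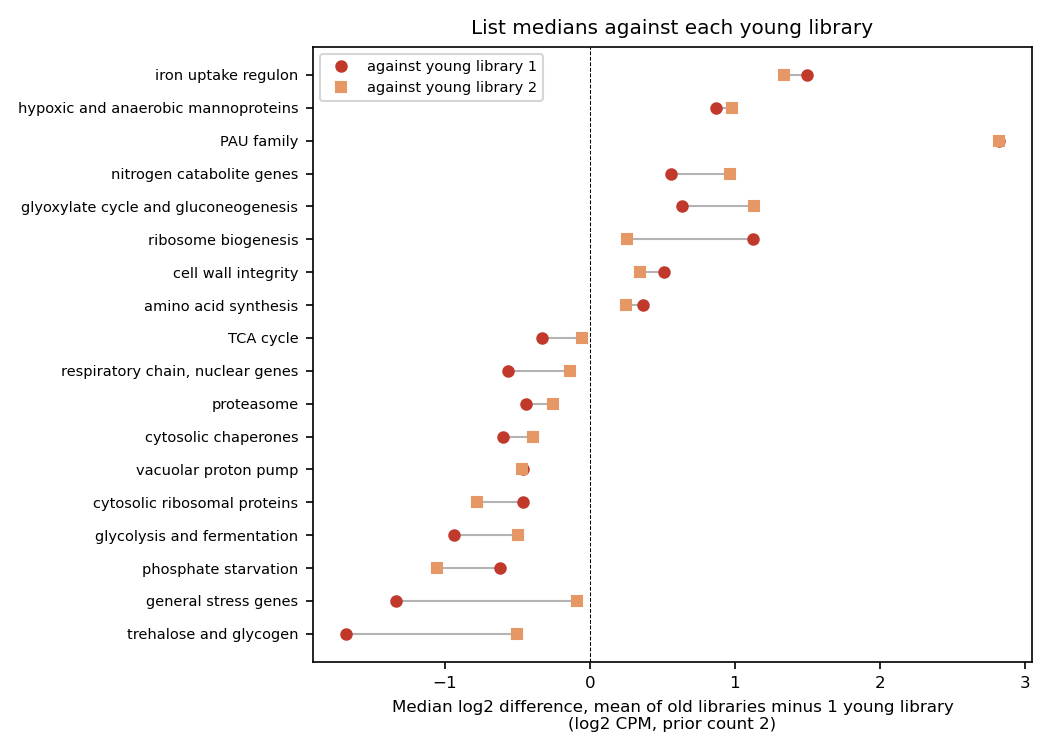
Median log2 difference (horizontal axis, log2 CPM with a prior count of 2) between the mean of the old libraries and young library 1 (red circles) or young library 2 (orange squares) for 18 lists. General stress genes (−1.34 and −0.09), trehalose and glycogen genes (−1.69 and −0.51) and ribosome biogenesis genes (1.12 and 0.26) move furthest between the young libraries, and the iron regulon (1.49 and 1.34) moves little.

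None of the genes tied to lifespan in other work that were looked at was called. SIR2, the histone deacetylase that keeps ribosomal DNA silent, had 38.4 and 44.6 CPM in old cells, against 17.6 and 35.8 CPM in young cells, at 0.62 (edgeR adjusted p 0.487). FOB1, the replication fork barrier protein of ribosomal DNA, had 50.7 and 61.0 CPM in old cells, against 40.2 and 57.0 CPM in young cells, at 0.19 (adjusted p 0.689). Both old libraries of SIR2 were above both young ones, whereas those of FOB1 overlapped them. PNC1, which clears nicotinamide, was lowest of the 19 genes of silencing and ribosomal DNA, with 412 and 435 CPM in old cells, against 1868 and 813 CPM in young cells, at −1.66 (adjusted p 0.187), and CSM1 was highest at 0.86. The list median was 0.08. Core and variant histone genes had a median of −0.15, with HTA2 lowest at −0.74, and none was called.

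Growth-related and other lists gave no calls either. The 29 genes of G1 and S phase had a median of 0.38 with CDC6 highest at 1.07, and the 19 genes of mitosis had −0.03, with SWI5 lowest at −0.83. Sterol synthesis had 0.08 (NCP1 highest at 1.17, ERG28 lowest at −0.63), sulfate and methionine genes 0.22 (MET30 highest at 1.07), multidrug resistance genes 0.28 (PDR5 highest at 0.98), fatty acid oxidation 0.14, mitochondrial import 0.10 and meiosis genes 0.33. STR3, the lowest sulfate gene, had 16.9 and 16.4 CPM in old cells, against 44.9 and 5.08 CPM in young cells. Young library 1 stood apart, and the log2 fold change of −0.55 became 1.71 without it.

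Genes of the Mother Enrichment Program and markers of mating type were read beside these results. SCW11, whose promoter drives Cre in the Mother Enrichment Program, had 110.2 and 111 CPM in old cells, against 53.4 and 70.7 CPM in young cells, at 0.83 (edgeR adjusted p 0.143). UBC9 and CDC20, the essential genes that Cre removes in daughters, were at 0.76 and −0.11, and neither was called.

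The summed level of 7 genes specific to a cells was 1076 and 1051 CPM in the old libraries, against 918 and 1689 CPM in the young ones, with a median of −0.30 and no call, and that of 4 alpha-cell genes was 53.5 and 63.2 CPM in the old libraries, against 32.0 and 34.5 CPM in the young ones. MF(ALPHA)1, a pheromone gene named after its values were seen, had 8 counts in old and 3 in young libraries. SAG1 was the one called, with 34.3 and 40.2 CPM in old cells, against 13.5 and 14.8 CPM in young cells, a log2 fold change of 1.39 (edgeR adjusted p 0.0497, SE 0.22). The libraries of both ages thus carried a-cell transcripts at much the higher sums. Among 11 pheromone response genes shared by haploids none was called, with STE18 lowest at −1.15 and FIG1 highest at 1.39.

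Across the transcriptome, fold changes ran with level. In 10 bins of equal size by mean level in young cells, the median log2 fold change was 0.59 in the lowest bin, of 600 genes up to 7.43 CPM, and −0.41 in the highest, of 599 genes above 310.2 CPM. Because the young values enter both measures, genes were also ranked by their level in the young libraries of the deletion strain, which gave 0.51 and −0.41. Ranked by mean level over the 4 wild-type libraries, the medians were 0.38 and −0.36. A gene could pass the filter on low counts through old cells alone, and no ranking removes this. By level in young wild-type cells, the lowest bin held 185 and the highest 4 of the genes at least 2-fold higher without overlap. These bins held 28 and 51 of those at least 2-fold lower. By gene length the medians ran from −0.18 in the shortest bin to 0.13 in the longest.

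Positions of the genes at least 2-fold higher are given as shares, with no test. Of 5677 tested genes with a position on a nuclear chromosome, 219 (3.86%) lay within 25 kb of an end. They made up 43 of the 336 such genes at least 2-fold higher without overlap (12.8%) and 5 of 127 at least 2-fold lower (3.94%). Without the PAU family, 33 of 209 genes near ends were at least 2-fold higher (15.8%), against 5.37% of the 5458 genes farther in, and the medians were 0.24 near ends and −0.0049 farther in. Among called genes 5 of 52 that rose lay near an end. Genes near ends were not matched for level, and their part in the relation with level was not tested.

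The same age difference was read in the deletion strain, which shares no library with the wild type. Its 3 RNA-seq libraries were, however, part of the edgeR fit that gave the calls. Replicate differences of the young wild-type and young deletion libraries correlated at r = −0.637 across genes. The deletion strain had 1 old library, and its values are given as a description with no test. All 52 genes that rose in wild type were above 0 there, where 52.7% of all genes were, and 51 were at least 1 on the log2 scale, where 11.0% of all genes were. The exception was VID24 at 0.80. All 5 genes that fell were below 0 (47.3% of all genes) and at −1 or below, where 5.36% of all genes were. The median difference of the 52 was 2.26 in the deletion strain and 2.22 in wild type on the same scale. LSO1 was at 4.93, FIT3 at 3.48, DAN1 at 5.31, TIR4 at 5.14 and PUT1 at 4.26. TIS11 is deleted there, and its value of 2.01 rests on 11 counts in the old library. That value is not a response of the gene, although the counts and the median of the 52 include it.

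**Figure D5:**
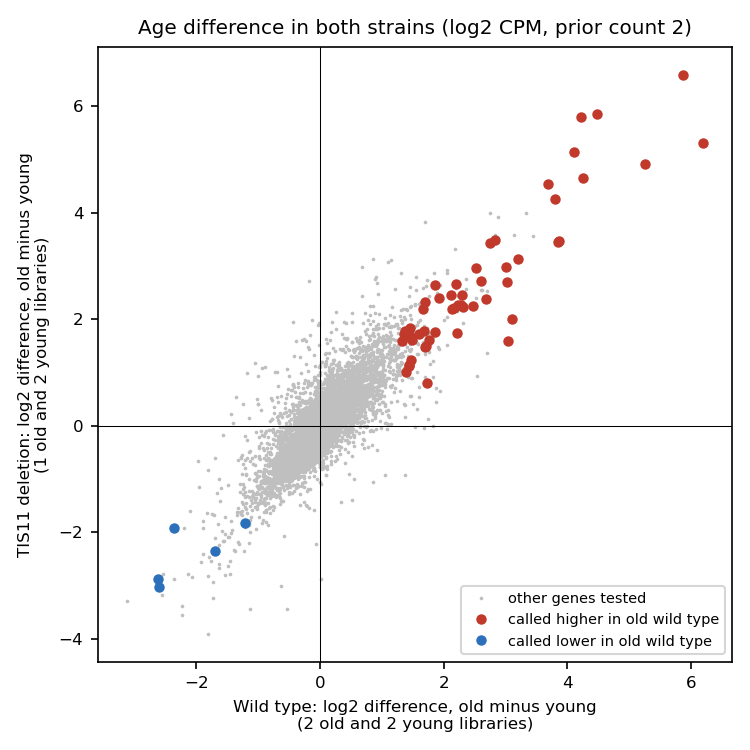
Log2 difference of old minus young cells in the TIS11 deletion strain (vertical axis, 1 old and 2 young libraries) against the same in wild type (horizontal axis, 2 old and 2 young libraries), for 5991 genes in log2 CPM with a prior count of 2. The 52 genes that rose in wild type (red) all lie above 0 in the deletion strain, and the 5 that fell (blue) all lie below −1.

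Ribosome footprints came from aliquots of the same wild-type lysates, so they share cultures with the mRNA. Of the 52 genes that rose, 49 had enough footprints, and all 49 were higher in both old footprint libraries than in both young ones, where 30.5% of 5200 genes were. All 4 testable genes that fell were lower without overlap, where 27.2% were. The log2 footprint difference, taken after adding 2 to each CPM value, was 5.20 for FIT1, 5.19 for TIR4, 3.98 for PUT1, 3.78 for MCH5 and −3.14 for YHB1. CRH1, FET3, SDS23, DAS1, TEA1 and YPL068C were below 1 in footprints, from 0.72 (CRH1) to 0.92 (FET3). Each had an edgeR log2 fold change above 1 in mRNA. The 2 scales differ, and a difference between footprints and mRNA was not tested.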

How the data were processed

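The deposited values are raw counts per gene and the gene length, one file per library, with no normalization, per the file headers. Per the submitters' processing notes, cutadapt 3.4, Bowtie 1.1.2, STAR 2.7.9a and build R64 were used; the counting program and its use of strand are not given in the sources used here. All files listed 7127 identifiers, of which 6088 matched the R64 RefSeq annotation; 99.1% of 6008 matched protein-coding genes had its coding length. BLAST+ 2.17.0 marked near-identical copies (90% identity or more, covering 50% or more of the gene).

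Genes were tested with edgeR 4.0.16 in R 4.3.3 (TMM, filterByExpr by group, robust quasi-likelihood, 1 mean per group) on all 7 RNA-seq libraries, with Benjamini-Hochberg adjustment over 5991 genes and a threshold of 0.05. SEs are approximate. Log2 differences for single libraries and the deletion strain use log2 CPM with a prior count of 2. No paired test was used: the replicate differences of old and young libraries correlated at r = 0.0065 across genes. The chi-square per gene between replicates was 6.59 in old and 48.0 in young libraries, so no library was a copy. With 2 libraries against 2, an exact two-sided permutation test cannot go below 0.333, so other values are described. Floors of 3 counts and 95% intervals of count ratios (exact binomial) cover counting error only. The fit was checked on simulated data.

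Named genes are the 20 highest and 10 lowest called genes averaging 10 CPM or more without overlap, called members of 49 gene lists written from general knowledge, the highest and lowest member of each list, and 10 genes of interest. The comparison, lists and rule were chosen with earlier results of these data known. Promoter windows were cut from the R64 genome. The list of daughter-cell markers is not reported here. Other samples of the series were used only where named.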

Additional observations from a re-analysis of the deposited data

How the results depend on the processing

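The count of called genes was 57 in edgeR. It was 59 with RLE size factors, 212 with library totals, 68 with no filter on low counts, 260 with the DESeq2 Wald test, 115 with limma voom and a weight per age, 91 with the 4 wild-type libraries alone and 47 without the old deletion library. All 57 were also called with RLE factors, with no filter and by DESeq2. Leaving out 1 wild-type library gave 1 to 15 calls. With replicate number as a block edgeR called 0 genes (852 had an unadjusted p under 0.05); the labels do not tie the numbers of old and young libraries together, and their replicate differences correlated at r = 0.0065. Genes at least 2-fold apart without overlap numbered 370 higher and 175 lower. They numbered 731 and 74 with library totals, 1803 and 1667 with any fold, and, chosen after seeing the data, 272 lower against young library 1 alone and 91 lower against young library 2 alone. The median of the lowest level bin was 0.59, or 0.51 by deletion-strain levels and 0.38 by the mean over the 4 wild-type libraries.

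Of 134 named genes and 1603 recomputed values, 20 turned direction, none of them of a called gene. With library totals these were OLI1 (0.021), ADR1 (0.27), SWI6 (0.025), RTG2 (0.021) and CDC20 (0.21). MF(ALPHA)2 came to −0.0063 with RLE factors, −0.0053 in DESeq2 and −0.017 with voom, and STR3 to 0.35 with voom. Leaving out single wild-type libraries in turn gave −0.48 to 2.44 for NDE2, −0.85 to 0.12 for OLI1, −0.26 to 0.21 for ADR1, −3.69 to 1.31 for HXT6, −1.43 to 1.71 for STR3, −0.16 to 0.16 for MF(ALPHA)2, −0.24 to 0.023 for CDC20 and −0.031 to 0.47 for FOB1. The 44 called named genes lost the call in 209 of 528 recomputed values. Of 49 list medians, 34 kept their sign in every alternative and 15 did not, among them the citrate cycle, oxidative defence and heme synthesis. Over the alternatives the median ran from 1.18 to 1.53 for the iron regulon, 0.90 to 1.28 for the low-oxygen list, 3.90 to 5.84 for the PAU family, 0.55 to 1.24 for nitrogen genes, 0.27 to 1.14 for ribosome biogenesis, −0.77 to −0.32 for ribosomal proteins, −1.69 to −0.52 for trehalose and glycogen genes and −1.33 to −0.09 for general stress genes. The cause of these changes was not tested. Depth limits what can be said of genes near 3 counts in young cells, above all the PAU family and DAN1.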

Other observations

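Some single genes outside the naming rule stood apart and were picked after their values were seen. EGO4 (YNR034W-A) had the lowest log2 fold change of all genes tested. It had 32.9 and 26.3 CPM in old cells, against 687 and 99.2 CPM in young cells, and at −3.73 (edgeR adjusted p 0.191) it was not called. Both old libraries were far below young library 1 and also below young library 2, and the young libraries differed widely.

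FUR4 and THI4 were picked in the same way, and neither was called in the test of all libraries. FUR4 (YBR021W), the uracil permease, had 43.8 and 54.5 CPM in old cells, against 12.6 and 4.42 CPM in young cells, at 2.57 (edgeR adjusted p 0.0702), and without young library 1 it was called at 3.46 (adjusted p 0.0412). THI4 (YGR144W), of thiamine synthesis, had 19.0 and 14.2 CPM in old cells, against 4.71 and 2.65 CPM in young cells, at 2.20 (edgeR adjusted p 0.0599). In both genes each old library was above each young one.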
